A study of Mus musculus with 48 samples.

Results

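The comparison asked whether the long axis of the hippocampus, which runs from the dorsal to the ventral pole, carries the same gene expression differences in CA1 pyramidal cells and in granule cells of the dentate gyrus (DG). It used 12 of the 48 RNA sequencing libraries of the series, 3 each from dorsal CA1 pyramidal cells, ventral CA1 pyramidal cells, dorsal DG granule cells and ventral DG granule cells of the mouse. For each gene the dorsal minus ventral difference in DG was subtracted from the dorsal minus ventral difference in CA1, on the log2 scale, and this interaction was tested for 13871 of the 37620 genes in the count table. A positive interaction means that the dorsal pole stood higher in CA1 than it did in DG. Per the labels, fluorescent neurons were picked by hand from microdissected slices. The strain, sex, age and fluorescent driver line of the mice are not given in the sources used here, and none of the 4 groups carries a stated treatment.

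CA1 pyramidal cells are the main output neurons of the hippocampus, and granule cells are the neurons through which cortical input enters it. In both regions the dorsal pole is best known for roles in spatial memory and the ventral pole for roles in emotional behaviour, and both regions have genes graded along the axis. Adhesion molecules, guidance receptors, ion channels and transmitter receptors are the classes of gene through which neurons at the poles can differ in wiring and excitability.

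The 4 groups differed in features other than region and pole. Reads counted in genes averaged 25.9 ± 3.99 M reads (SD, n = 3; M stands for mega) in dorsal CA1, 7.01 ± 1.69 M in ventral CA1, 7.17 ± 0.59 M in dorsal DG and 15.6 ± 0.86 M in ventral DG, so the deeper pole was dorsal in CA1 and ventral in DG. Beside 1 read of the ERCC RNA added in proportion to cell number there was a median of 146 gene reads in dorsal CA1, 27.3 in ventral CA1, 27.7 in dorsal DG and 84.7 in ventral DG. Summed CA1 pyramidal markers were 2220 to 2383 CPM (the reads of a gene relative to the TMM-scaled total of its library) in dorsal CA1, 971 to 1030 in ventral CA1, and 17.6 to 97.8 in DG. Summed granule cell markers were 2741 to 3224 CPM in dorsal DG, 2141 to 2428 in ventral DG and 167 to 216 in CA1. Pou3f1, one of the CA1 markers, had no read in any of the 12 libraries. Of the 9 listed markers of GABAergic neurons, Dlx2, Dlx5 and Lhx6 were also at 0 in all 12. Others of that list were present. Gad2 had 11.3 to 14.4 CPM in ventral CA1 and 0 to 1.39 CPM in dorsal CA1. Slc32a1 had 0.732 to 0.92 CPM in ventral CA1 and 0 in dorsal CA1. Dorsal DG replicates 2 and 3 stood apart from the other 10 libraries in sex-linked genes. Their Xist levels were 3052 and 3016 CPM against 5.52 to 12.6 CPM elsewhere, and Ddx3y was at 0 and 0.135 CPM against 31.9 CPM in dorsal DG replicate 1. The biological coefficient of variation was 0.368 in a fit of the 6 CA1 libraries and 0.640 in a fit of the 6 DG libraries, against 0.565 in the 12 together.

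At an adjusted p under 0.05 (edgeR quasi-likelihood test, Benjamini-Hochberg over all genes tested), 996 genes, 7.18% of those tested, differed between CA1 and DG in their long-axis difference, 505 (3.64%) with a positive and 491 (3.54%) with a negative interaction. In the same fit 843 genes (6.08%) were called along the CA1 axis, of which 332 (2.39%) were higher in dorsal and 511 (3.68%) higher in ventral CA1. The DG axis had 2140 called genes (15.4%), 966 (6.96%) higher in dorsal and 1174 (8.46%) higher in ventral DG. Of the CA1 axis genes 43.1% were called in the interaction, and of the DG axis genes 30.6%. A fit with limma voom that gave each group its own library weight, added after the data were seen, called 703 interaction genes, 265 positive and 438 negative. The positive share was thus 50.7% with 1 pooled spread and 37.7% with group weights, and the median interaction over all genes was 0.03 and 0.24. The group weights turned the order of the axes around, with 1949 genes called in CA1 and 846 in DG. Of the 996 genes 625 kept their call and direction under group weights, and 872 kept them with dorsal DG replicates 2 and 3 left out, where 2930 genes were called and 2 of the 996 reversed. In that fit the lone dorsal DG library is assumed to vary like the other groups.

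The called genes fell into 5 patterns. Both axes were called with opposite signs for 61 genes, 31 higher in dorsal CA1 and ventral DG and 30 higher in ventral CA1 and dorsal DG. The CA1 axis alone was called for 249 genes, 90 dorsal and 159 ventral. The DG axis alone was called for 540 genes, 234 dorsal and 306 ventral. Another 53 genes had both axes called on the same side but to a different extent, and 93 had an interaction with neither axis called. The count of opposite genes was 61 with group weights too, while the DG only count was 236 and the CA1 only count 301. With dorsal DG replicate 1 as the single dorsal DG library the counts were 229 opposite, 432 CA1 only and 1908 DG only.

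**Figure D1:**
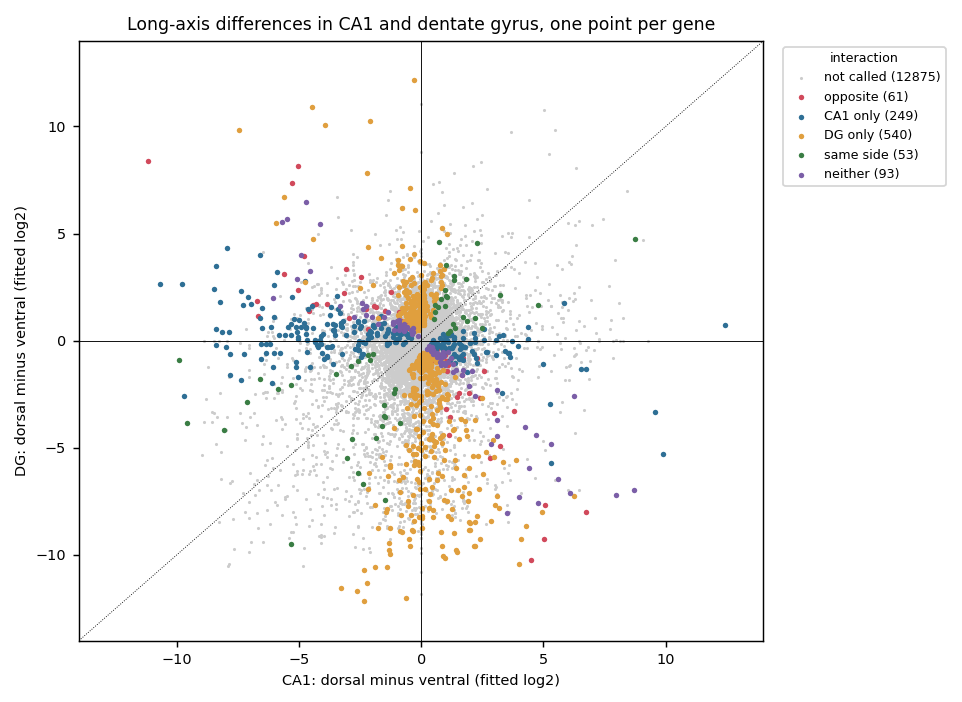
Fitted dorsal minus ventral log2 difference in CA1 (horizontal) and in DG (vertical), 1 point per gene tested, with the 996 interaction genes coloured by pattern. Genes on the dotted diagonal have equal differences in both regions. The 61 opposite genes lie in the upper left and lower right, and the 540 DG only genes run along the vertical axis, most of the far ones below 0.

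Across all genes tested, called or not, the axes were only loosely alike. Over all 13871 genes the differences in CA1 and DG had a Pearson correlation of 0.157 and a Spearman correlation of 0.137, and 54.3% had the same sign. The points share library depth within a group, and genes are not independent replicates. Both axes were called for 343 genes, which are 40.7% of the CA1 axis genes and 16.0% of the DG axis genes. Of these, 282 had the same sign, 123 toward dorsal and 159 toward ventral. The Pearson correlation was 0.338 among genes called along the CA1 axis, 0.308 along the DG axis and 0.559 among those called in both. Such genes were chosen by the same differences that are correlated.

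The opposite genes included enzymes, matrix proteins, a neuropeptide and a glutamate receptor. The promoter sequences of 4 of them are shown, a pair from each direction. The shared direction of a pair was set by how the genes were chosen, and a shared regulator was not tested. Each line gives the 250 bases before the start site in RefSeq (GRCm38.p6, 5′ to 3′ on the gene's strand), and capitals mark matches to the nuclear receptor half-site AGGTCA, the target form of Nr2f2-type receptors, or to the E-box sequences CAGATG and CAGCTG bound by factors such as the Neurod proteins, on either strand.
Egfl6: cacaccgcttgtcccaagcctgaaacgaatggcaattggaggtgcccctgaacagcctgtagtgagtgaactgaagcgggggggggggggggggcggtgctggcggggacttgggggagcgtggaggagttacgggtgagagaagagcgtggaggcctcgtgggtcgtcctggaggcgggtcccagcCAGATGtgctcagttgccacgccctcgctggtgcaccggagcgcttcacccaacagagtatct
Col11a1: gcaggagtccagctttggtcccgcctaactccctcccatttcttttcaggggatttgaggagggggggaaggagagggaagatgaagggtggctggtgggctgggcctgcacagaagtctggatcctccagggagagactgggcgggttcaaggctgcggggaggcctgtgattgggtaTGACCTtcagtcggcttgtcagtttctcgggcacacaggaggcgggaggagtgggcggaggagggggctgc
Npy: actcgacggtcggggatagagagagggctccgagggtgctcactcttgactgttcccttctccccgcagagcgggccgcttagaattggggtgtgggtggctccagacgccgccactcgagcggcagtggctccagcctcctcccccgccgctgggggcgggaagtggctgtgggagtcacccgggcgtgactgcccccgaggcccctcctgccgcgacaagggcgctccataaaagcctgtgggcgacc
Grm2: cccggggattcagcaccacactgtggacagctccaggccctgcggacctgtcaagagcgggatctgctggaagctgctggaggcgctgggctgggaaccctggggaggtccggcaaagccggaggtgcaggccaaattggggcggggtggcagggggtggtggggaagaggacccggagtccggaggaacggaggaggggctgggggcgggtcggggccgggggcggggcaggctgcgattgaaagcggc
The Egfl6 sequence lies at chrX:166585717-166585966 on the minus strand and holds 1 CAGATG. The Col11a1 sequence lies at chr3:114030290-114030539 on the plus strand and holds 1 AGGTCA, read from the other strand. The Npy sequence (chr6:49822460-49822709, plus strand) and the Grm2 sequence (chr9:106656110-106656359, minus strand) hold none of the motifs. Of 32851 RefSeq promoter windows of this length, 14.0% hold AGGTCA, 14.4% hold CAGATG and 13.0% hold CAGCTG. The GC content was 64.8% for Egfl6, 62.4% for Col11a1, 69.2% for Npy and 71.2% for Grm2, against a median of 52.4% over all windows. Of the other 6 opposite genes named below, Samd5, Rflnb, Stra6 and Necab3 had sequences in the table. Samd5 holds 1 CAGCTG, 3 of the 4 start sites of Stra6 hold it, and Rflnb and Necab3 hold none of the motifs. Car2 and Has3 did not have a sequence.

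In the direction of dorsal CA1 and ventral DG, Car2, which encodes the cytosolic carbonic anhydrase 2, had 60.6, 45.9 and 50.6 CPM in the dorsal CA1 libraries and 2.89, 1.65 and 2.3 CPM in the ventral ones. In DG its order was turned around, with no read in any dorsal library and 10.4, 7.73 and 12.7 CPM in the ventral ones. The ratio of means was 23.0 toward dorsal in CA1 and at least 26.0 toward ventral in DG, where the lower group is set at 3 reads per library. The interaction adjusted p of Car2 was 1.22e-06 by edgeR. The groups did not overlap in either region, which the rule for named opposite genes required. Has3, a hyaluronan synthase that makes matrix polysaccharide, had 19.5, 20.3 and 24.5 CPM in dorsal CA1 and 1.38, 2.93 and 2.53 in ventral CA1. In DG it had 0, 0.675 and 0 CPM in the dorsal and 5.5, 4.03 and 11 CPM in the ventral libraries (interaction adjusted p = 0.00168).

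Egfl6 encodes a secreted protein with EGF repeats and Col11a1 a fibrillar collagen chain. Egfl6 averaged 22.8 CPM in dorsal and 0.643 CPM in ventral CA1, against no reads in dorsal DG and 0.33, 0.715 and 4.16 CPM in ventral DG. Its DG side was near the floor, since 3 reads are worth 0.396 CPM in dorsal DG. Col11a1 averaged 31.8 and 2.21 CPM in dorsal and ventral CA1 and 0.132 and 1.35 CPM in dorsal and ventral DG. Samd5, a SAM domain protein, averaged 33.4 and 4.75 CPM in CA1, while its DG libraries held no read in dorsal cells and 0.26 to 0.495 CPM in ventral ones, a level too low for a fold. Under group weights the interactions of Samd5 and Col11a1 lost their call (limma voom adjusted p = 0.13 and 0.101).

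In the other direction, Npy, the gene of neuropeptide Y, had no read in any dorsal CA1 library and between 19.9 and 20.2 CPM in each ventral one. In DG it had 2.51, 0.135 and 5.96 CPM in the dorsal libraries and none in the ventral ones. The difference of means was at least 171-fold in CA1 and at least 16.3-fold in DG, and the edgeR interaction adjusted p was 0.000377. The DG bound does not hold for each library. Dorsal DG replicate 2, at 0.135 CPM, lay below the 0.176 CPM that 3 reads are worth in ventral DG. Npy is also a marker of interneurons. The GABAergic marker sum was 0.542 to 1.96 CPM in dorsal CA1, 17.8 to 35.7 in ventral CA1, 109 to 146 in dorsal DG and 120 to 155 in ventral DG, and its part in the Npy result was not tested.

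Grm2, a presynaptic group II metabotropic glutamate receptor, had the smallest interaction p of the 10 named opposite genes. It had 0.116, 0.0998 and 0.18 CPM in dorsal CA1 and 17.6, 12.4 and 12.8 CPM in ventral CA1, a ratio of 108. In DG it had 227, 188 and 124 CPM in dorsal and 48.1, 67.5 and 33.3 CPM in ventral libraries, a ratio of 3.63 the other way (interaction log2 -8.59 ± 0.54, SE; adjusted p = 1.28e-07). The ventral CA1 level of Grm2 was 28.7% of its ventral DG level. For Prox1, which defines granule cells, that share was 0.207%. The part of RNA from other cells in the Grm2 result was not tested. Rflnb, an actin-binding refilin, averaged 0.139 and 4.88 CPM in dorsal and ventral CA1 and 36.5 and 0.127 CPM in dorsal and ventral DG. Stra6, a cell-surface receptor for retinol-binding protein, averaged 0.0519 and 2.84 CPM in CA1 and 31.9 and 3.65 CPM in DG. Necab3, a neuronal calcium-binding protein, averaged 0.34 and 9.28 CPM in CA1 and 39.7 and 2.55 CPM in DG. Necab3 overlaps E2f1 and Stra6 overlaps Ccdc33 in RefSeq, and the strand used in counting is not given in the sources used here, so their reads may include those of the overlapping genes.

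**Figure D2:**
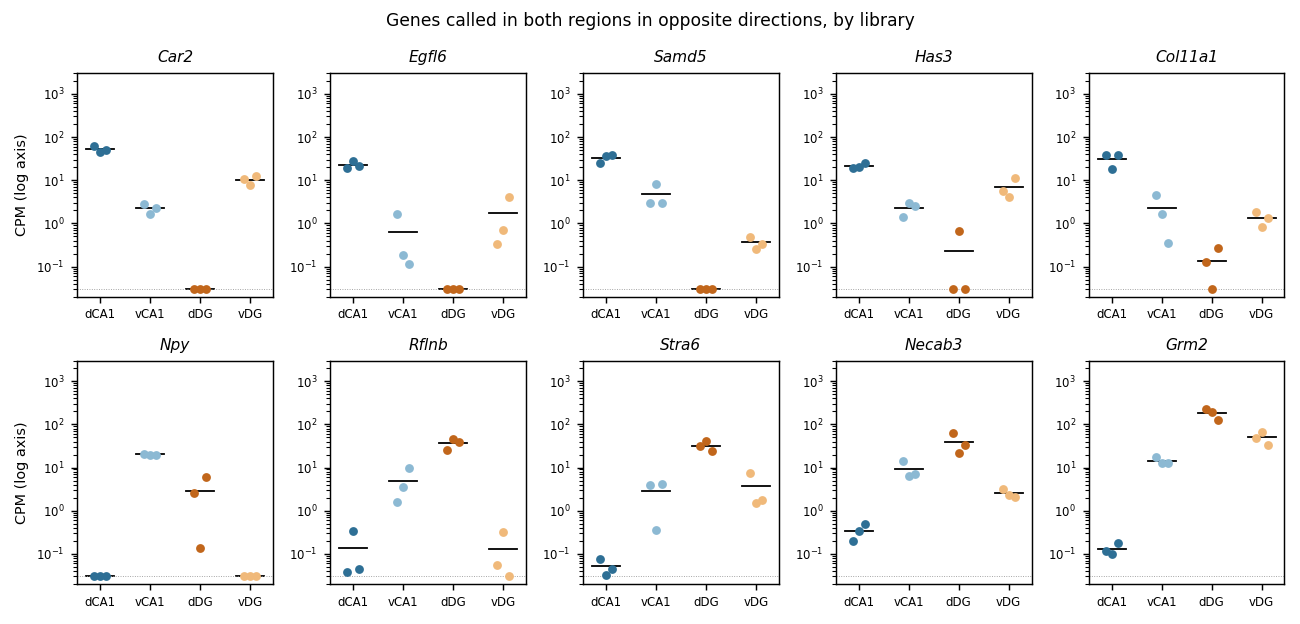
CPM on a log axis for the 10 named opposite genes, 1 point per library and a bar at the group mean (dCA1 and vCA1, dorsal and ventral CA1; dDG and vDG, dorsal and ventral DG); libraries with no read are drawn on the dotted line. The upper genes are high in dorsal CA1 and ventral DG relative to the opposite poles, as for Car2 (52.4 and 2.28 CPM in CA1, 0 and 10.3 CPM in DG), and the lower genes the reverse.

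Genes called in CA1 alone toward the dorsal pole included channels and calcium handling. Scn4b, an auxiliary sodium channel subunit, had 44.7, 45.3 and 52.6 CPM in dorsal CA1 and no read in ventral CA1, at least a 112-fold difference. In DG it stayed at or under 0.675 CPM in every library, with a DG axis adjusted p of 0.62 (interaction adjusted p = 0.000864). Wfs1, an endoplasmic reticulum protein long used as a dorsal CA1 marker, averaged 1402 ± 74.4 CPM in dorsal and 89.3 ± 21.4 CPM in ventral CA1. The 3 dorsal DG libraries held 86.4, 19.6 and 7.58 CPM of Wfs1 and overlapped with the ventral DG range of 40.1 to 49.8 CPM. Strip2 averaged 94.0 and 4.55 CPM in the CA1 poles and 7.46 and 7.06 CPM in the DG poles. Slc8a3, a sodium-calcium exchanger, averaged 25.1 and 2.53 CPM in CA1. In DG its mean ran the other way, with 6.17 CPM at the dorsal and 33.6 CPM at the ventral pole, short of the threshold (DG axis adjusted p = 0.0696). Plekhg1, a guanine nucleotide exchange factor, averaged 145 and 3.57 CPM in CA1 against no reads and 0.429 CPM in DG. Its interaction was lost under group weights (limma voom adjusted p = 0.112), without ventral DG replicate 3 (edgeR adjusted p = 0.0602) and with the first dorsal DG library only (edgeR adjusted p = 0.0578).

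Of the 5 named genes called in CA1 alone toward the ventral pole, 4 (all but Csf1) had both DG means above the higher CA1 mean. Prox1, the transcription factor that specifies granule cells, had no read in dorsal CA1 and 2.76, 2.2 and 3.56 CPM in ventral CA1, against a mean of 1192 CPM in dorsal and 1374 CPM in ventral DG. Gad1, which encodes a GABA-synthesising enzyme that granule cells also express, had no read in dorsal CA1 and 3.14, 2.01 and 3.33 CPM in ventral CA1, with means of 72.1 and 50.0 CPM in DG. Both genes overlap an antisense gene in RefSeq. The Prox1 interaction was lost when the 6 CA3 libraries joined the fit (edgeR adjusted p = 0.146). Drd1, the D1 dopamine receptor, had no read in dorsal CA1, 0.126, 0.183 and 1.26 CPM in ventral CA1, and means of 27.6 and 4.51 CPM in dorsal and ventral DG. Its interaction was lost without ventral CA1 replicate 3 (edgeR adjusted p = 0.0701). Csf1, a growth factor for microglia, averaged 0.0929 and 12.3 CPM in CA1 and 32.2 and 9.96 CPM in DG. Slc26a11, an anion transporter that overlaps Sgsh, averaged 0.0261 and 5.27 CPM in CA1, but its dorsal DG libraries read 59.1, 0 and 1.76 CPM. Its interaction adjusted p was 0.0244 in edgeR, and the call was lost in 12 alternatives, with adjusted p from 0.0542 to 0.192, the highest with limma voom group weights. Without dorsal DG replicate 1 the edgeR adjusted p was 0.119.

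Many of these genes were higher in the other region. Of the 159 genes called in CA1 alone toward ventral, 82 (51.6%) had both DG poles above the higher CA1 pole. The share was 26.4% over all genes tested, 23.4% of the genes called toward ventral CA1 without an interaction, and 16.7% (15 of 90) of those called in CA1 alone toward dorsal. The mirrored share for DG was 40.2% (123 of 306) for genes called in DG alone toward ventral and 8.55% (20 of 234) for those called toward dorsal, against 24.7% over all genes. The pole concerned was the shallower of its region in CA1 and the deeper in DG. The part that RNA from cells of the other region had in these calls was not tested. Among granule cell markers, the ventral CA1 level as a share of the ventral DG level was 0.207% for Prox1, 0.56% for Dsp, 1.52% for Stxbp6 and 38.9% for Pdzd2. The other markers of that list had 0.0501% (Glis3), 0.255% (C1ql2), 0.981% (Plk5), 1.34% (Tdo2), 3.95% (Lct) and 49.4% (Calb1). Lrrtm4, from the adhesion list, had 9.63%. In bulk RNA, more cells with a transcript and more transcript per cell cannot be told apart.

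Genes called in DG alone toward dorsal included structural, enzyme and signalling genes. Dsp, the desmosomal plaque protein desmoplakin and a known granule cell gene, had 333, 410 and 349 CPM in dorsal DG and 18.9, 25.3 and 31.4 CPM in ventral DG, a ratio of 14.4. In CA1 no library exceeded 0.183 CPM. The interaction of Dsp (adjusted p = 0.0227) was lost after thinning all libraries to the smallest total (edgeR adjusted p = 0.165), and without any 1 of the ventral CA1 libraries (edgeR adjusted p = 0.0814 to 0.0905). Tnnt2, cardiac troponin T, had 88.9, 25.0 and 1.62 CPM in dorsal DG and none in ventral DG. Its interaction adjusted p was 0.0171, and 0.267 without ventral CA1 replicate 2. Cpm, a membrane carboxypeptidase, averaged 44.2 and 0.304 CPM in dorsal and ventral DG, a ratio of 146, and 2.05 and 2.69 CPM in CA1. Stard8, a GTPase-activating protein, averaged 40.9 and 6.13 CPM in DG. It was at or near 0 in CA1, and its interaction was lost after thinning (edgeR adjusted p = 0.133).

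Genes called in DG alone toward ventral included matrix and channel genes that were at 0 in dorsal DG. Adamts9, a matrix metalloprotease, had 34.3, 36.1 and 34.8 CPM in ventral DG and no read in dorsal DG, at least an 88.6-fold difference, with means of 0.779 and 1.15 CPM in dorsal and ventral CA1. Scn7a, an atypical sodium channel, had 50.9, 25.6 and 38.9 CPM in ventral DG, none in dorsal DG, and 2.41 CPM or less in CA1. Rcn1, a calcium-binding protein of the endoplasmic reticulum, averaged 21.5 CPM in ventral DG, 0 in dorsal DG and 11.3 and 2.47 CPM in ventral and dorsal CA1. Its CA1 difference ran the same way, just short of the threshold (edgeR CA1 axis adjusted p = 0.051). Cdh6, a type II cadherin, averaged 1.03 CPM in ventral DG and 0 in dorsal DG. Its CA1 means ran the other way, 26.0 CPM dorsal and 4.95 CPM ventral, without passing the test along that axis (adjusted p = 0.12). Scn7a, Rcn1 and Cdh6 lost the interaction call under group weights (limma voom adjusted p = 0.0707, 0.0694 and 0.0616), and Adamts9 kept it.

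**Figure D3:**
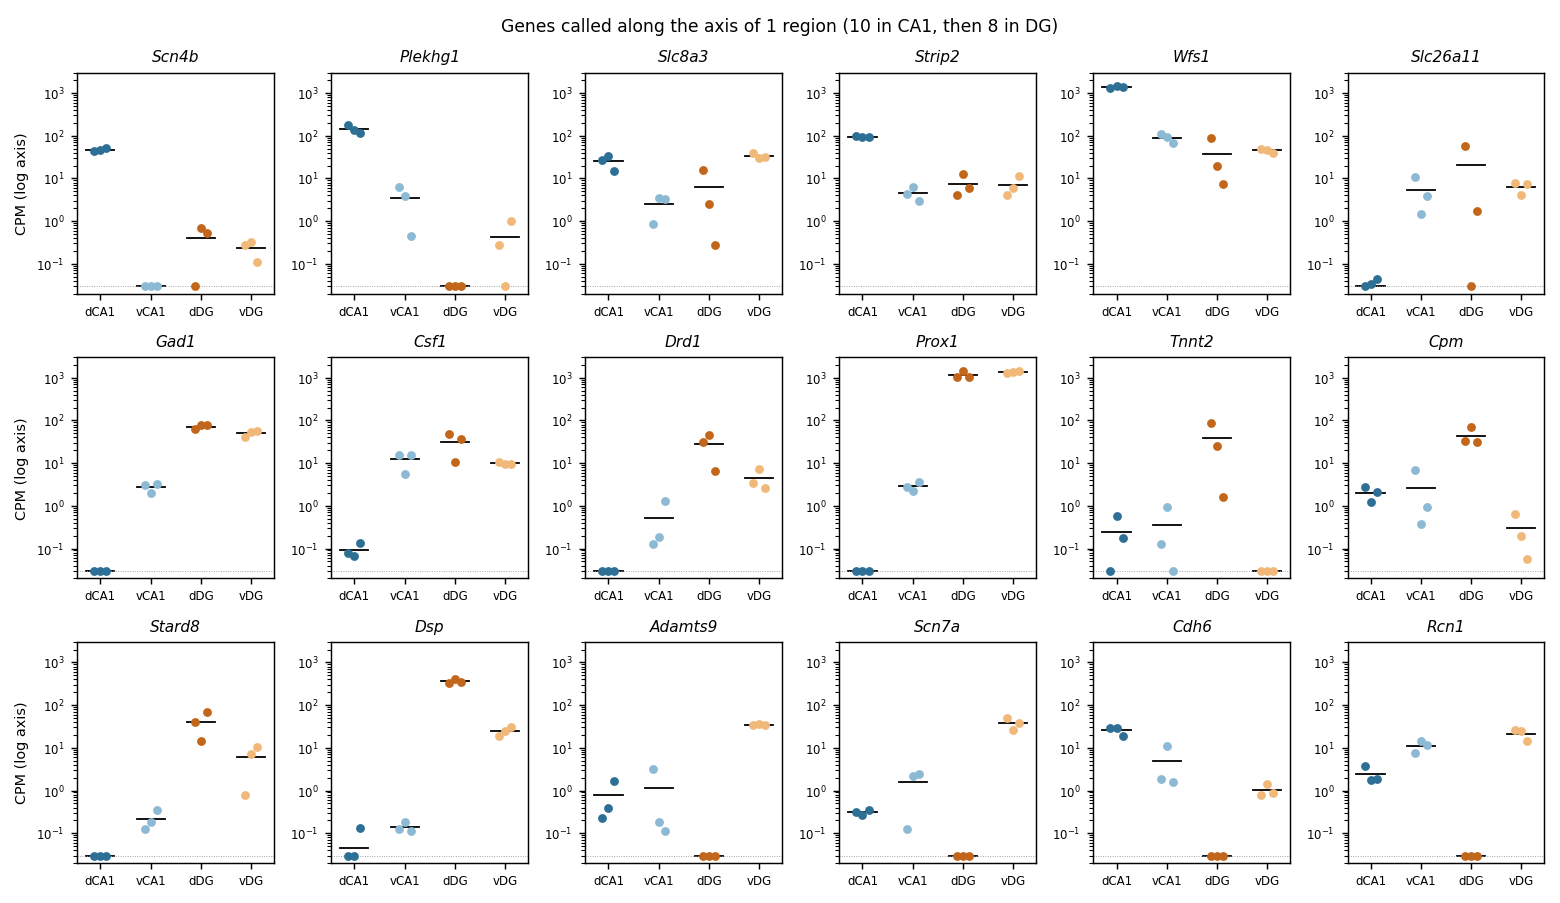
CPM on a log axis for the 10 named CA1 only genes (Scn4b to Prox1) and the 8 named DG only genes (Tnnt2 to Rcn1), 1 point per library with a bar at the group mean; libraries with no read are drawn on the dotted line. Scn4b separates the CA1 poles (47.5 and 0 CPM) and not the DG poles, and Dsp separates the DG poles (364 and 25.2 CPM) and not the CA1 poles.

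A smaller set was graded on the same side in both regions but by different amounts. Tenm4, a teneurin adhesion protein, was higher at the ventral pole of both, with 126, 155 and 140 CPM in dorsal and 388, 420 and 339 CPM in ventral CA1, a ratio of 2.72. In DG the ratio was 174, from 0.502, 0.54 and 2.17 CPM in dorsal to 211, 184 and 164 CPM in ventral libraries (interaction log2 5.97 ± 0.43, adjusted p = 4.23e-07). Rasgrp1, a Ras exchange factor, was higher at both dorsal poles, 1.69-fold in CA1 (2854 against 1689 CPM) and 23.9-fold in DG (744 against 31.1 CPM). Lct, the lactase gene and a known dorsal marker, had 116, 123 and 126 CPM in dorsal CA1 and 0, 0.183 and 0.575 CPM in ventral CA1. In DG it fell from 162, 158 and 193 CPM in dorsal to 6.65, 7.73 and 4.78 CPM in ventral libraries, so its ratio was 482 in CA1 and 26.8 in DG (interaction adjusted p = 0.000575). Igfbp5, which binds insulin-like growth factors, averaged 0.0299 CPM in dorsal and 32.6 CPM in ventral CA1, a counting-based ratio of 1277 with an exact 95% interval of 352 to 10563, against 286 and 540 CPM in DG, a ratio of 1.89.

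Other genes were called in both axes in the same direction with no interaction call. Mgll, which degrades the endocannabinoid 2-arachidonoylglycerol, was 11.2-fold higher in dorsal CA1 and 10.9-fold higher in dorsal DG, and the difference of the log2 changes was -0.02 with a 95% interval of -1.33 to 1.30. For Net1, a guanine nucleotide exchange factor, the ratios were 4.89 and 5.73 and the interval -1.08 to 0.58. For Anxa11, an annexin, they were 7.05 and 6.81 with an interval of -1.16 to 1.21. Toward ventral, Grp, the gastrin-releasing peptide, had ratios of 85.6 and 57.0 (interval -2.98 to 1.77) and Fxyd6, a sodium pump regulator, 68.5 and 46.0 (interval -2.87 to 1.59). Oxtr, the oxytocin receptor, was 59.8-fold higher in ventral CA1 and at least 4.44-fold higher in ventral DG, and the difference of the log2 changes was 1.78 with an interval of -1.87 to 5.44. The Oxtr difference was -0.32 in counts thinned to the smallest library and -1.80 with limma voom group weights. In all, 185 genes were called in both axes in the same direction with an unadjusted interaction p of at least 0.05, which does not show that their grades are equal.

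Among gene lists, cell adhesion had the largest number of interaction calls. Every functional gene list had a share above the 7.18% of all genes, from 14.8% for neuropeptide receptors to 40.3% for cell adhesion. A raised share was thus not particular to any 1 of them. Of 67 adhesion genes tested 27 were called, 17 positive and 10 negative, against 7.18% of all genes. The median interaction of the list was 0.08, against 0.03 over all genes, so the calls went both ways. The DG axis called 27 members toward ventral and 5 toward dorsal, against 8.46% and 6.96% of all genes. The CA1 axis called 18 and 8, against 3.68% and 2.39% of all genes. The count was 21 under group weights and 29 with the single dorsal DG library.

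Adhesion genes with opposite grades included Nrxn3, a presynaptic partner of neuroligins and LRRTM proteins. Nrxn3 averaged 512 and 104 CPM in dorsal and ventral CA1 and 117 and 205 CPM in DG (interaction log2 3.08 ± 0.23, adjusted p = 5.56e-07). Lsamp, a limbic-system IgLON protein, averaged 1030 and 467 CPM in CA1 and 340 and 749 CPM in DG (adjusted p = 1.22e-06). Cntn4 and Pcdh20 moved the same way, and Lrrtm3, a postsynaptic neurexin ligand, the other way, from 0.587 to 11.5 CPM toward ventral in CA1 and from 60.8 to 18.8 CPM in DG. Its paralog Lrrtm4 had 0.349, 0.233 and 0.18 CPM in dorsal and 9.42, 11.9 and 12.5 CPM in ventral CA1, against 182 and 117 CPM in the DG poles. Kirrel3, an immunoglobulin adhesion protein of mossy fibre synapses, rose from 2.01, 1.16 and 0.943 CPM in dorsal to 77.3, 82.4 and 73.5 CPM in ventral CA1. In DG it averaged 104 and 85.7 CPM (interaction adjusted p = 1.71e-07). Ntm, the IgLON neurotrimin, did the reverse, level in CA1 at 269 and 277 CPM but at 0.502, 1.08 and 0.271 CPM in dorsal and 74.3, 55.5 and 49.9 CPM in ventral DG (interaction log2 6.51 ± 0.41, adjusted p = 1.28e-07).

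Axon guidance genes had 15 calls of 53 tested, against 7.18% of all genes, 6 positive and 9 negative, with a median of -0.26. Unc5d, a netrin receptor, was opposite, at 0.28 and 9.34 CPM in dorsal and ventral CA1 and 73.2 and 14.1 CPM in DG. Dcc, the attractive netrin receptor, was called in DG only, with 6.4, 17.7 and 20.8 CPM in dorsal and 95.8, 110 and 85.9 CPM in ventral libraries. Its CA1 means ran the other way, 108 CPM dorsal and 59.1 CPM ventral (edgeR CA1 axis adjusted p = 0.205). Ntng1, a netrin-G, rose in ventral CA1 from 2.88 to 103 CPM, and averaged 80.0 and 40.0 CPM in dorsal and ventral DG. Members of the ephrin system (Epha4, Epha5, Epha7 and Efnb2) were graded on the same side in both regions to different extents. Extracellular matrix genes had 9 calls of 34 tested, against 7.18% of all genes, 5 positive and 4 negative, and 4 calls under group weights. Sparcl1, a matricellular protein, was opposite, with 72.6 and 324 CPM in CA1 and 687 and 475 CPM in DG. Ccn3, another matricellular protein, had a ratio of 4.09 toward ventral in CA1 and 4.86 CPM or less in every DG library. Its interaction was lost under group weights (limma voom adjusted p = 0.281).

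**Figure D4:**
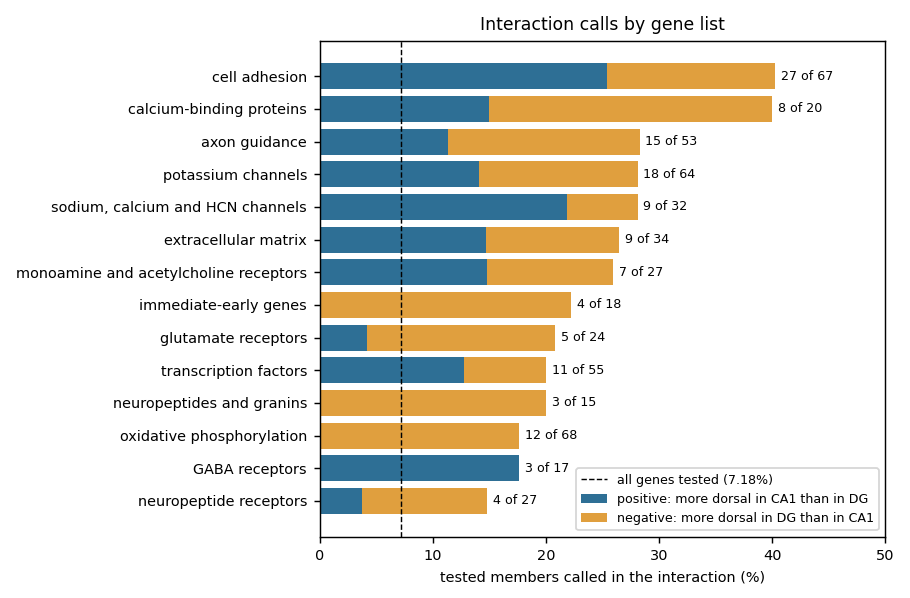
Percentage of tested members called in the interaction for 14 gene lists, split by direction, with the number called of the number tested. The dashed line is the 7.18% of all genes tested; cell adhesion (27 of 67) and calcium-binding proteins (8 of 20) have the longest bars.

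Potassium channels had 18 calls of 64 tested, against 7.18% of all genes. The calls were 9 in each direction, and 12 of the 18 were called in CA1 only. Kcnc4, a fast-activating Kv3 subunit, had 0.0775, 0.166 and 0.269 CPM in dorsal and 51.9, 32.6 and 45.8 CPM in ventral CA1, but 89.6 and 112 CPM in the DG poles (interaction adjusted p = 4.37e-07). Kcng1, a silent subunit of Kv2 channels, rose 11.2-fold toward ventral in CA1 and averaged 86.3 and 70.9 CPM in DG. Kcnh7, an ERG-type channel that overlaps other genes in RefSeq, was opposite, with 1256 and 205 CPM in CA1 and 83.3 and 221 CPM in DG. Kcnq5, an M-current subunit, and Kcnt2, a sodium-activated channel, were opposite too. Sodium, calcium and HCN channel genes had 9 calls of 32, against 7.18% of all genes, 7 positive and 2 negative. Scn3b, a sodium channel beta subunit, averaged 1147 and 284 CPM in dorsal and ventral CA1 and 263 and 288 CPM in DG, a ratio of 4.03 in CA1 and 1.09 in DG. Cacna1i, a T-type calcium channel, was opposite at 81.3 and 27.4 CPM in CA1 and 2.85 and 15.5 CPM in DG. Pex5l, the HCN accessory protein, was called in DG only, 3.01-fold toward ventral. Its CA1 means ran the other way, 632 CPM dorsal and 454 CPM ventral, short of the threshold (edgeR CA1 axis adjusted p = 0.227).

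Glutamate receptor genes had 5 calls of 24 tested, against 7.18% of all genes, and 4 of the 5 were opposite with ventral CA1 and dorsal DG higher. These were Grm2 and Grm3, which are both group II metabotropic receptors, Grik3, a kainate receptor subunit, and Neto1, a kainate and NMDA receptor accessory protein. Grik3 had 0.155, 0.133 and 0.18 CPM in dorsal and 21.6, 9.15 and 17.9 CPM in ventral CA1, and 129, 65.6 and 175 CPM in dorsal against 43.1, 65.7 and 59.3 CPM in ventral DG, where the lowest dorsal library fell just below the highest ventral one. Neto1 averaged 30.3 and 234 CPM in CA1 and 263 and 125 CPM in DG. Its DG poles overlapped too, with 357, 134 and 299 CPM in dorsal and 101, 131 and 144 CPM in ventral libraries. Grm3 averaged 3.37 and 18.4 CPM in CA1 and 17.1 and 2.2 CPM in DG. Grin2a, an NMDA receptor subunit, was called positive, with 1141 and 567 CPM in CA1 and 392 and 340 CPM in DG. The list median was -0.75, the count was 6 under group weights and 13 with the single dorsal DG library. GABA receptor genes had 3 calls of 17, against 7.18% of all genes, and all were positive. Gabbr1, a subunit of the metabotropic GABA receptor, averaged 810 and 515 CPM in CA1 and 374 and 401 CPM in DG, and its interaction was lost under group weights (limma voom adjusted p = 0.0874).

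Monoamine and acetylcholine receptors had 7 calls of 27 tested, against 7.18% of all genes, 4 positive and 3 negative. Htr1a, the inhibitory serotonin 1A receptor, was opposite, with 138, 185 and 188 CPM in dorsal and 61.7, 63.7 and 94.6 CPM in ventral CA1. In DG it had 18.6, 4.99 and 9.34 CPM in dorsal and 118, 155 and 123 CPM in ventral libraries (interaction adjusted p = 2.47e-05). Chrm3, a muscarinic receptor, was opposite in the same sense. Drd5, a D1-class dopamine receptor, was level in CA1 at 15.1 and 17.8 CPM and 70.9-fold higher in dorsal than in ventral DG (15.4 against 0.217 CPM). Chrna4, a nicotinic subunit, was level in CA1 at 19.7 and 18.2 CPM and 19.6-fold higher in ventral than in dorsal DG. Neuropeptide receptors had 4 calls of 27, against 7.18% of all genes. Oprd1, the delta opioid receptor, was opposite, at 0.233 and 9.23 CPM in dorsal and ventral CA1 and 7.62 and 0.0371 CPM in DG. Trhr, the thyrotropin-releasing hormone receptor, had 153, 217 and 181 CPM in ventral DG against 0, 4.18 and 0 CPM in dorsal DG. Its interaction was lost with DESeq2 (adjusted p = 0.0756) and after thinning (edgeR adjusted p = 0.104). Among neuropeptides and granins 3 of 15 were called, against 7.18% of all genes. All 3 were negative: Npy, Pdyn and Resp18, the last lost under 11 of the alternatives run.

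**Figure D5:**
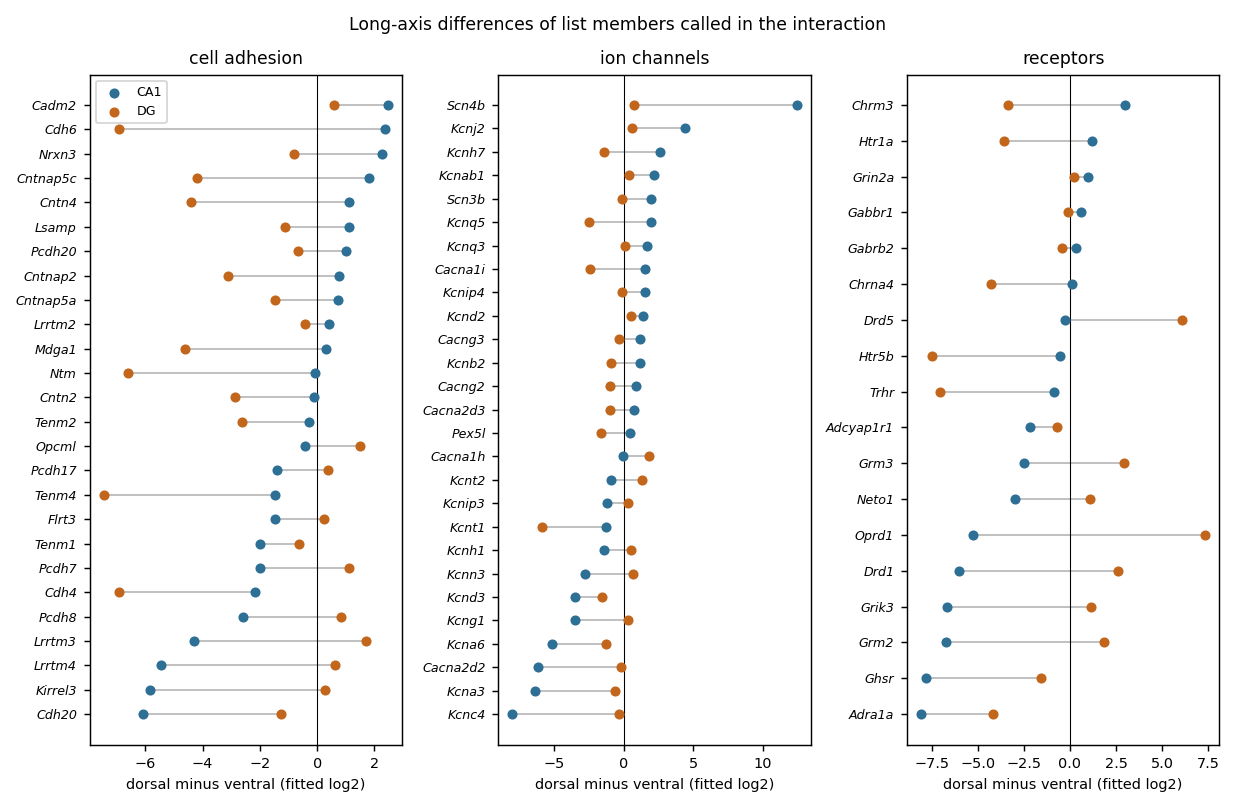
Fitted dorsal minus ventral log2 difference in CA1 (blue) and DG (orange) for adhesion, ion channel and receptor genes called in the interaction (2 genes are not shown), joined by a grey line and ordered by the CA1 value. Genes whose points lie on either side of 0 have opposite mean grades, such as Grm2 (-6.73 in CA1, 1.86 in DG) and Htr1a (1.19 in CA1, -3.58 in DG).

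Transcription factors had 11 calls of 55 tested, against 7.18% of all genes, 7 positive and 4 negative. Neurod6, a pyramidal neuron bHLH factor, was opposite, at 755 and 370 CPM in CA1, while DG held means of 0.389 and 3.73 CPM at its dorsal and ventral poles. Its call was lost under group weights (limma voom adjusted p = 0.196). Neurod2 was level in CA1, with 147 and 132 CPM, and 6.43-fold higher in dorsal than in ventral DG (543 against 84.4 CPM). Satb1, a chromatin organiser, averaged 114 and 13.6 CPM in CA1 and 38.9 and 62.0 CPM in DG. Nr2f2, the orphan nuclear receptor COUP-TFII, was higher at both ventral poles, from 1.01 to 40.2 CPM in CA1 and from 0.0869 to 68.8 CPM in DG (interaction log2 4.15 ± 0.87, adjusted p = 0.00876).

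Immediate-early genes, which are induced by activity or by handling of cells, had 4 calls of 18, against 7.18% of all genes. All 4 were negative. Jun had 8.14, 3.89 and 1.39 CPM in dorsal and 99.7, 54.9 and 72 CPM in ventral CA1, against means of 220 and 248 CPM in DG. Fosl2 averaged 14.0 and 134 CPM in CA1 and 93.3 and 52.6 CPM in DG. In DG 7 members were higher in dorsal and none in ventral cells (10 and 0 at an unadjusted p under 0.05 in edgeR), where 6.96% and 8.46% of all genes were called. In CA1 the counts were 1 and 3 (4 and 3 unadjusted), where 2.39% and 3.68% of all genes were called. These counts describe each axis, and the list's difference between them was not tested. Nuclear genes of oxidative phosphorylation had 12 calls of 68, against 7.18% of all genes. All 12 were negative, and 11 of these were called in DG alone. In DG 30 members were higher in dorsal and none in ventral cells, and in CA1 none was called either way by edgeR, where 1 member had an unadjusted p under 0.05. The shares of all genes are those given for the immediate-early list. Cox6a1, a cytochrome oxidase subunit, had 389, 235 and 252 CPM in dorsal and 63.1, 80.5 and 61.5 CPM in ventral DG, and means of 86.6 and 91.7 CPM in CA1. The list median was -0.82. Its count was 10 under group weights, 33 with the single dorsal DG library, 24 with DESeq2, and between 5 and 18 when 1 library at a time was left out. The share of reads from the mitochondrial genome was 14.9% to 17.0% in dorsal DG and 15.8% to 20.7% in ventral DG.

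Calcium-binding proteins had 8 calls of 20, against 7.18% of all genes, 3 positive and 5 negative. Hpca, hippocalcin, was higher at both dorsal poles, 2500 against 696 CPM in CA1 and 1055 against 144 CPM in DG. Calb1, calbindin, averaged 68.7 and 172 CPM in CA1 and 263 and 349 CPM in DG. Its interaction was -0.95 and short of the threshold (adjusted p = 0.0556; adjusted p from 0.016 to 0.178 over the alternatives that changed its call or value). Of the markers of other cell types, astrocyte (0 of 5), oligodendrocyte (0 of 3), microglia (0 of 1) and endothelial genes (0 of 4) had no interaction call in the 12-library edgeR fit or by DESeq2. With 7.18% of all genes called, lists this small cannot tell a low share from that of all genes. Of these markers 1 oligodendrocyte gene and no other had an unadjusted edgeR p under 0.05. With the single dorsal DG library 1 astrocyte gene was called. Within DG 2 of the 5 astrocyte genes were called higher in ventral cells, against 8.46% of all genes. They were Slc1a2, a glutamate transporter, at 416 and 679 CPM in dorsal and ventral DG, and Aqp4, a water channel, at 0.0418 and 3.93 CPM. Markers of other types had interaction calls, with 1 of 1 for choroid plexus, 1 of 4 for mossy cells, 1 of 6 for CA3 pyramidal cells, 3 of 7 for CA2, 1 of 6 for immature granule neurons, 2 of 3 for GABAergic neurons and 2 of 5 for SST and PV interneurons, against 7.18% of all genes. The choroid plexus gene was Kl, which encodes klotho, at 54.3 and 4.05 CPM in dorsal and ventral CA1 and 15.3 and 15.6 CPM in DG. The other 4 markers of that list, Ttr, Folr1, Clic6 and Aqp1, had no read in dorsal CA1, where Kl was highest. Calb2, calretinin, which stands in both the mossy cell and immature granule neuron lists, averaged 2.29 and 0.591 CPM in CA1, with no read in dorsal DG and 3.85 CPM in ventral DG. Coch, cochlin, from the CA3 list, averaged 2.16 and 0.615 CPM in CA1, with no read in dorsal DG and 0.945 CPM in ventral DG, and its call was lost in 13 alternatives. The part of other cells in the interaction was not tested. Fibcd1, a CA1 marker, was called negative, with means of 181 and 303 CPM in CA1 and 7.71 and 0.658 CPM in DG. Of the granule cell markers Pdzd2 was opposite, at 2.1 and 18.5 CPM in CA1 and 220 and 47.6 CPM in DG. Pcp4, a calmodulin-binding protein used as a CA2 marker, rose from 0.326 to 15.4 CPM toward ventral in CA1 and averaged 73.4 and 61.4 CPM in DG.

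The CA3 long axis, fitted in 6 other libraries, was set beside these patterns. It had 1540 called genes of 13343 (11.5%), 844 (6.33%) dorsal and 696 (5.22%) ventral, and 4 of its 6 libraries carried high Xist. Of the CA1 only genes, 231 were tested in CA3 and 98 were called there, 80 on the CA1 side and 18 on the other. Of the DG only genes, 515 were tested and 107 called, 62 on the DG side and 45 on the other. Of the opposite genes, 58 were tested and 26 called, 12 on the CA1 side and 14 on the DG side. Of the same side genes, 33 of 53 were called, 29 on the shared side. These shares are descriptions with no test of the difference between patterns.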

How the data were processed

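The 12 libraries of mouse CA1 pyramidal cells and DG granule cells, dorsal and ventral, were compared. Per the labels' protocols, RNA from sorted neurons received ERCC RNA and was amplified with Ovation RNA-seq v2. The authors deposited raw read counts per Ensembl gene for 48 libraries. HTSeq, DESeq2, TopHat2 2.0.6 and Cuffdiff 2.1.1 are named, with builds mm9 and NCBIM37 and without roles, per the submitters' processing notes. Replicates are the count columns 1 to 3, matched to groups by name. Another 30 count columns were not used.

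The 92 ERCC rows and 5 summary rows entered neither library sizes nor tests. Reads outside genes were 20.8% to 46.7%, and gene IDs without a name held 0.538% to 0.799% of gene reads; RefSeq tables named 32897 IDs. Genes were kept by filterByExpr (minimum count 10), scaled by TMM and tested with edgeR 4.0.16 (R 4.3.3) quasi-likelihood tests at an adjusted p under 0.05. The CA3 axis was a separate fit. CPM used TMM over 18 libraries. Where a group had no read, folds were set against 3 reads per library, and groups with 1 to 3 reads got an exact 95% interval. Reads are PCR products without molecular identifiers, so both cover counting error only. A fitted log2 value of a gene with an empty group depends on the prior count. Separate animals for the 3 libraries are not stated in the labels, and p-values then cover only the spread between samples, which may be technical. Replicates of a group all differed (chi-square per degree of freedom at least 13.0).

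Named genes were called in the interaction, had at least 20 CPM in the highest group and full separation in each called axis, excluding predicted, ribosomal, small RNA, mitochondrial and sex-linked genes. They were ranked by the interaction log2: 5 per direction for opposite and CA1 only, 4 for DG only, 2 for same side. Genes shared by both axes, 4 per direction, were ranked by the smaller axis change. To these came 3 called members per list, by smallest p, and Prox1, Fibcd1, Calb1 and Lct. Other named list members were chosen after their values were seen. Members and lists were chosen with earlier results of these data known. Alternatives were DESeq2 1.42.0, RLE scaling, other filters, the 18-library fit, thinning, no mitochondrial genes, a replicate block and each library left out. Added after seeing the data were limma 3.58.1 voom with group weights, separate CA1 and DG fits, and dorsal DG replicates 2 and 3 left out. Scripts were tested on simulated data. Some genes are not reported here.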

Additional observations from a re-analysis of the deposited data

Results flagged for a closer look

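The long-axis difference itself differed between CA1 and DG, by the interaction test of edgeR (adjusted p under 0.05), for 996 genes, and 61 of them were called with opposite signs in the 2 regions. The fitted interaction log2 values of the named opposite genes were 14.72 for Car2, 12.76 for Egfl6, 8.26 for Samd5, 8.10 for Has3 and 7.09 for Col11a1, where dorsal was higher in CA1 and ventral in DG. They were -19.60 for Npy, -13.18 for Rflnb, -8.74 for Stra6, -8.73 for Necab3 and -8.59 for Grm2, where the poles were exchanged. For Car2, Egfl6, Samd5 and Npy at least 1 group held no read, and the fitted value depends on the prior count. Single libraries were not tested for standing apart within their groups of 3. The values with each library left out are given with the other alternatives.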

How the results depend on the processing

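The interaction count of 996 was 1017 with RLE scaling, 998 without mitochondrial genes, 1138 without a filter, 959 with at least 10 CPM in 3 libraries and 912 after thinning to 5.12 M reads; 967, 993, 864, 846 and 846 of the 996 genes kept call and direction. DESeq2 called 1710 (803 positive, 907 negative; 123 opposite, 979 DG only, 94 same side, 152 neither), with 432 adjusted p-values not given, and 3069 genes in the DG axis. The 18-library fit called 1510 (792 positive; 902 DG only, 171 neither) and 773 genes in the CA3 axis. With dorsal DG replicates 2 and 3 left out, 2930 were called (1674 positive, 1256 negative; 229 opposite, 432 CA1 only, 1908 DG only, 130 same side, 231 neither), with 1791 in the CA1 and 3871 in the DG axis. Group weights gave 265 positive, 236 DG only, 1949 CA1 axis and 846 DG axis genes. Fits of 6 libraries called 1810 genes in CA1 and 775 in DG. The median of all interactions moved from 0.03 to 0.36 without a filter, 0.49 with 1 dorsal DG library, 0.24 with group weights and 0.13 with the replicate block.

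Leaving out 1 library gave 616 (without ventral CA1 replicate 3) to 1508 (without dorsal DG replicate 3) interaction genes, 295 to 821 positive, 321 to 689 negative, 35 to 93 opposite, 150 to 309 CA1 only, 327 to 901 DG only, 31 to 71 same side and 47 to 146 neither. The CA1 axis ran from 519 to 1121, the DG axis from 1196 to 2643 and the CA3 axis from 766 to 1882.

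Of 78 named genes called, 54 kept call and direction in every alternative that tested them, 24 lost the call in at least 1, and 0 reversed. An alternative that filtered a gene out or gave it no adjusted p was not counted for that gene. With at least 10 CPM in 3 libraries, 847 of the 996 genes were tested. Of the list counts, 518 stayed within 1.5 times and 98 did not, 45 with more calls and 53 with fewer. Same-numbered libraries did not deviate together (18 pairs, correlation -0.0499 to 0.0174). With 3 libraries per group this cannot show whether they share an animal or batch. With the replicate block 810 genes were called, 788 of them among the 996. Depth limits low genes: 3 reads are worth 0.117 CPM in dorsal CA1 and 0.424 CPM in ventral CA1.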
